A study of Mus musculus with 6 samples.

Results

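Laminins, nidogens, perlecan and agrin form the core of the basement membrane, the thin sheet of matrix that wraps muscle fibres, vessels and nerves. The 10 genes described here are the laminin chain genes Lama2, Lama4, Lama5, Lamb1, Lamb2 and Lamc1, the nidogen genes Nid1 and Nid2, the perlecan gene Hspg2 and the agrin gene Agrn. They were taken by name: every probe set whose only gene symbol on the platform is one of these was used, which gave 21 probe sets of 45037 on the array and all 10 genes among 10855 genes tested. Their transcripts were compared between PICs, interstitial cells of muscle known for the protein PW1, and satellite cells, the resident stem cells of muscle. Both populations came from hindlimb muscle of C57 black 6 mice 7 to 9 days old, with no mutation or treatment named, and were separated by flow cytometry on CD34 and Sca1. Each has 3 arrays, called biological replicates by the submitters. Nothing states whether a replicate is 1 mouse or a pool, so p-values measure the spread between these arrays.

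A laminin is a cross-shaped protein of an alpha, a beta and a gamma chain, wound together in the secreting cell. The alpha chain carries the sites for cell receptors, integrins and dystroglycan, while nidogens tie the gamma chain to the collagen IV network. Perlecan and agrin are proteoglycans that bear heparan sulphate and bind laminin, and agrin from motor nerves also gathers acetylcholine receptors at the neuromuscular synapse. In muscle, the alpha2 laminins are the main ones around fibres, and loss of the alpha2 chain causes a congenital muscular dystrophy.

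The populations differed in these genes chiefly through the alpha chain genes Lama4 and Lama5 and the nidogens. Lama4, Nid2, Nid1, Lamb2 and Lamb1 were higher in PICs, by 8.28-fold, 7.81-fold, 4.63-fold, 3.07-fold and 2.04-fold on the brightest probe set of each gene. Lama5 was 15.4-fold lower in PICs, a size that is uncertain because its PIC intensities were low, at 46, 24 and 15. Lama2, Lamc1, Hspg2 and Agrn were not called. A call means an adjusted p under 0.05 in limma, fitted over all genes, and a difference of at least 2-fold.

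Promoter sequences are shown for 3 called members that differ in direction, as the stretch just upstream of each gene. They are the 250 bases before the start site, 5′ to 3′ on the gene's strand, from RefSeq on GRCm38.p6, with the E-box letters CANNTG in capitals. The E-box is the core motif of basic helix-loop-helix factors, among them the myogenic factors. Lama5 is on chr2:180225860-180226109, minus strand; Nid1 on chr13:13437352-13437601, plus strand; Lamb1 on chr12:31265043-31265292, plus strand.
Lama5: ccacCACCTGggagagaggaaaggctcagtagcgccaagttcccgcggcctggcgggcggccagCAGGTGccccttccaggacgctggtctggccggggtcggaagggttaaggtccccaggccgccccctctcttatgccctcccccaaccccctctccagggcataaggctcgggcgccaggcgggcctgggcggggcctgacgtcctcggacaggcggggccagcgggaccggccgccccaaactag
Nid1: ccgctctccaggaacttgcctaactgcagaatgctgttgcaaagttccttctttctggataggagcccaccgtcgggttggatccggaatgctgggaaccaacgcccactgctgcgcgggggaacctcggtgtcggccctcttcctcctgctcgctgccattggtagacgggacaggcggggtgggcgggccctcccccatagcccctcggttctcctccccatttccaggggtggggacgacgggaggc
Lamb1: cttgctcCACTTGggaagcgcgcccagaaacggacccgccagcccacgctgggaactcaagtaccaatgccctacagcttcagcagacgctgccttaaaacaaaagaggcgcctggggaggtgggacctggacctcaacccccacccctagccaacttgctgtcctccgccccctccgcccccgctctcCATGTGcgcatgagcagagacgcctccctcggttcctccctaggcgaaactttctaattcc

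The Lama5 and Lamb1 windows held 2 E-boxes each, although the genes differed in opposite directions between the populations, and the Nid1 window held 0. The E-box reads the same on both strands as searched. Of 32851 promoter windows of the same length, 66.2% held at least 1 and 31.8% at least 2. The GC box, searched as GGGCGG on both strands, occurred 4 times before Lama5, 2 times before Lamb1 and 1 time before Nid1, and in 32.7% of all windows. The letters TATAAA, on either strand, were in none of the 3 windows and in 12.4% of all. A match is only a match of letters. Of the 10 members, 7 had an entry in the table. Lama2 and Lamb2 had 1 E-box and Hspg2 had 0. Agrn, with 2 start sites listed, had 1 E-box at one of them and 0 at the other.

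The arrays hold intensities from GCRMA, a method that corrects background by probe sequence, equalises the arrays and summarises each probe set. The median intensity was 10 on every array and 44.7% to 45.5% of probe sets lay above 16, or 4 on the log2 scale, the level taken here as low. A probe set was tested when at least 3 of the 6 arrays lay above it. All 8 satellite cell markers were higher in satellite cells and 6 of 7 tested interstitial markers higher in PICs. The 6 include Cd34, whose protein was used to sort the cells. Ly6a, which encodes Sca1, was not analysed here. Markers of other cell types had signal in both populations, and the cells that these transcripts came from were not determined. The 8 endothelial markers summed to 1826 to 6111 on the PIC arrays and 3235 to 4404 on the satellite arrays, and 0 of them were called by limma. Of the 8 mural markers 1 was called higher in PICs, 2 in satellite cells and 5 in neither, with sums of 9205 to 22432 in PICs and 31089 to 34616 in satellite cells. Acta2, 1 of the 2 called in satellite cells, weighs most in the satellite sums. Its mean log2 level was 14.31 there, the highest of the mural markers, and 12.03 in PICs. Of 6 Schwann markers 3 were called, all higher in PICs (4 with the replicate number as a block, which adds Sox10; Cdh19 had no measured level in satellite cells), with sums of 3453 to 14231 in PICs and 3851 to 10537 in satellite cells. The 4 tested leukocyte markers, with 0 called, summed to 68 to 1719 in PICs and 71 to 2303 in satellite cells. The other 4 leukocyte markers were above the low value level on fewer than 3 arrays or on none: on their brightest array Ptprc reached 215, Tyrobp 93, Cd14 69 and Itgam 5. As in any bulk sample, fewer cells of a type and less RNA per cell cannot be told apart.

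Of the 21 member probe sets, 18 were tested, and the other 3, 1 each for Lama5, Lamb1 and Agrn, read between 5 and 6 on every array. Among those tested, 10 were called towards PICs and 2 towards satellite cells, where the fit over all 20606 probe sets called 14.5% and 12.5% (27% in either direction). By gene, 5 of 10 were called towards PICs and 1 towards satellite cells, against 16.7% and 13% of all genes (29.8% in either direction). The median log2 difference, PICs minus satellite cells, was 0.95 over the members and -0.04 over all genes. PIC and satellite arrays did not overlap in 14 of the 18 probe sets and in 8 of the 10 genes, where 58.9% of all probe sets and 64.6% of all genes were parted in this way. One probe set, of Nid1, passed through the PIC arrays alone and had to differ. The adjusted p-values given for members below come from the probe set fit.

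**Figure D1:**
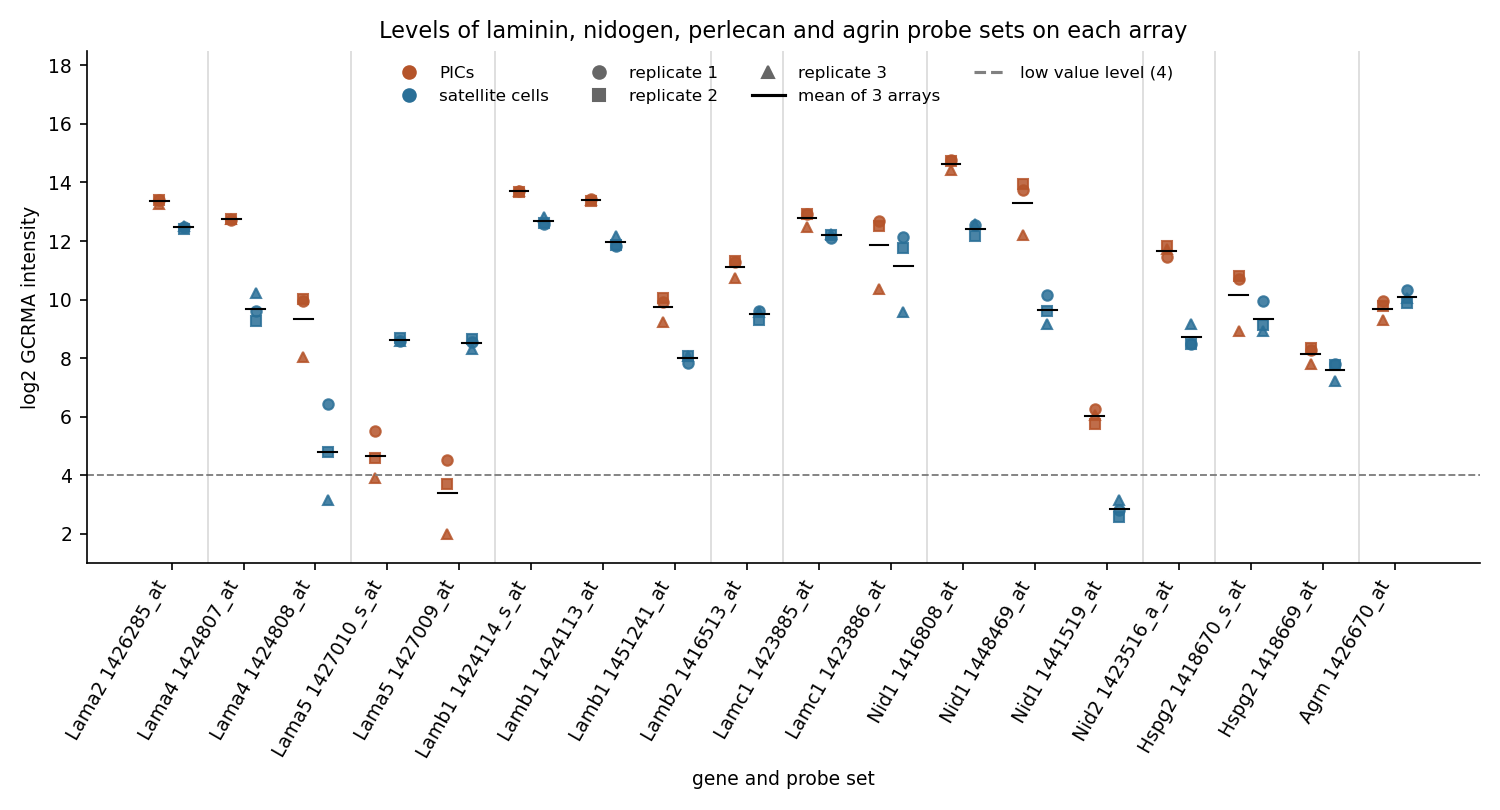
The vertical axis is the log2 GCRMA intensity and each position on the horizontal axis is 1 of the 18 tested probe sets, with PICs left of satellite cells, a symbol for each replicate number, a bar for the mean of 3 arrays and a dashed line at the low value level of 4. Lama5 is the gene whose PIC arrays lie near or under the dashed line while its satellite arrays lie between 8.31 and 8.69; the second Lamc1 probe set and the brighter Hspg2 probe set show the arrays of both populations overlapping.

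The alpha chains moved unequally. Lama4 encodes the alpha4 chain, a short form without the N-terminal arm, found in vessel walls, nerve sheath and muscle interstitium. Its brighter probe set read 6696, 6860 and 6965 on the PIC arrays, against 779, 612 and 1184 on the satellite arrays. The PIC arrays were nearly equal and no satellite array came near them. The log2 level averaged 12.74 ± 0.03 on PIC arrays and 9.69 ± 0.48 on satellite arrays (SD, n = 3 each), a difference of 3.05 (95% interval 2.45 to 3.65; limma, adjusted p = 0.000319). A second Lama4 probe set read 999, 1046 and 265 in PICs and 86, 28 and 9 in satellite cells, with array 3 lowest in both populations. It gave a difference of 4.55 with a wide interval, 2.27 to 6.82 (adjusted p = 0.00855), and the satellite array at 9 lay under the low value level.

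Lama5, the alpha5 chain of vessel and synaptic basement membranes, was the member called higher in satellite cells. Its brighter probe set read 46, 24 and 15 in PICs, against 382, 414 and 381 in satellite cells. The satellite arrays lay close together and far above the PIC arrays, of which array 3 fell under the low value level. The log2 level averaged 4.67 ± 0.81 on PIC arrays and 8.61 ± 0.07 on satellite arrays (SD, n = 3 each), a difference of -3.94 (95% interval -4.90 to -2.98; limma, adjusted p = 0.000567). A second Lama5 probe set had the same direction, with 23, 13 and 4 in PICs and 372, 404 and 317 in satellite cells. Its fitted difference of -5.09 (adjusted p = 0.0011) rests on PIC values of which 2 are under the low value level, so its size is uncertain; the satellite mean exceeded that level by 4.50 on the log2 scale. The low PIC signal of Lama5 was highest on array 1 and lowest on array 3. Every marker sum fell in the same order on PIC arrays 1, 2 and 3. Satellite markers summed to 5968, 4599 and 4428, and endothelial markers to 6111, 4415 and 1826. Mural markers summed to 22432, 15912 and 9205, and Schwann markers to 14231, 7307 and 3453. Leukocyte markers summed to 1719, 203 and 68, and interstitial markers to 91768, 89231 and 86184. The falls were unequal in size between the lists, and the part of other cells in the PIC signal was not tested.

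Lama2 encodes the alpha2 chain. It read 10735, 10845 and 9810 in PICs, against 5771, 5432 and 5903 in satellite cells. The populations did not overlap, yet the difference of 0.88 (95% interval 0.61 to 1.14; limma, adjusted p = 0.00114) stayed under the 2-fold threshold, at 1.83-fold. Within each array the log2 ratio of one alpha chain to another was compared between populations, which asks about unequal change and not about amounts of protein. Taken as PICs minus satellite cells, the log2 ratio of Lama5 to Lama4 differed by -6.99, that of Lama5 to Lama2 by -4.82 and that of Lama4 to Lama2 by 2.17, each without overlap between arrays. For each of the 3 ratios the exact two-sided permutation p was 0.1 (0.12 adjusted over the 6 ratios tested), the smallest that 3 against 3 arrays allow.

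The beta chain genes were both higher in PICs. Lamb1 encodes the widespread beta1 chain. Its brightest probe set read 13469, 13208 and 13477 in PICs, against 6114, 6312 and 7277 in satellite cells. It differed by 1.03 (95% interval 0.75 to 1.31; limma, adjusted p = 0.000818), close to the threshold: without satellite replicate 1 the difference in the gene fit was 0.98 and not called. The other tested Lamb1 probe sets lay further from it, at 1.46 and 1.73, and were both called.

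Lamb2 encodes the beta2 chain, concentrated at the neuromuscular synapse and in vessels. It read 2466, 2556 and 1713 in PICs, against 786, 629 and 757 in satellite cells. All PIC arrays were above all satellite arrays, with a difference of 1.62 (95% interval 1.14 to 2.09; limma, adjusted p = 0.00109). The ratio of Lamb2 to Lamb1 within an array overlapped between populations, and its mean differed by 0.59 (exact permutation p = 0.2, also 0.2 adjusted over the 6 ratios). Between arrays of equal number the ratio differed by 0.51, 0.96 and 0.29, higher in PICs in each of the 3 pairs.

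Lamc1 encodes gamma1, the chain shared by most laminins. Its brighter probe set read 7793, 7787 and 5702 in PICs, against 4446, 4704 and 4874 in satellite cells. The arrays did not overlap, and the difference of 0.59 (95% interval 0.20 to 0.97; limma, adjusted p = 0.0236) was under the 2-fold threshold. The second probe set read 6605, 5822 and 1322 in PICs, against 4481, 3469 and 754 in satellite cells. Here array 3 was several times dimmer than its companions in both populations, and the difference of 0.71 had an interval of -1.47 to 2.88 (limma, adjusted p = 0.551). With the replicate number as a block the same difference had an adjusted p of 0.00617, still under 2-fold.

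**Figure D2:**
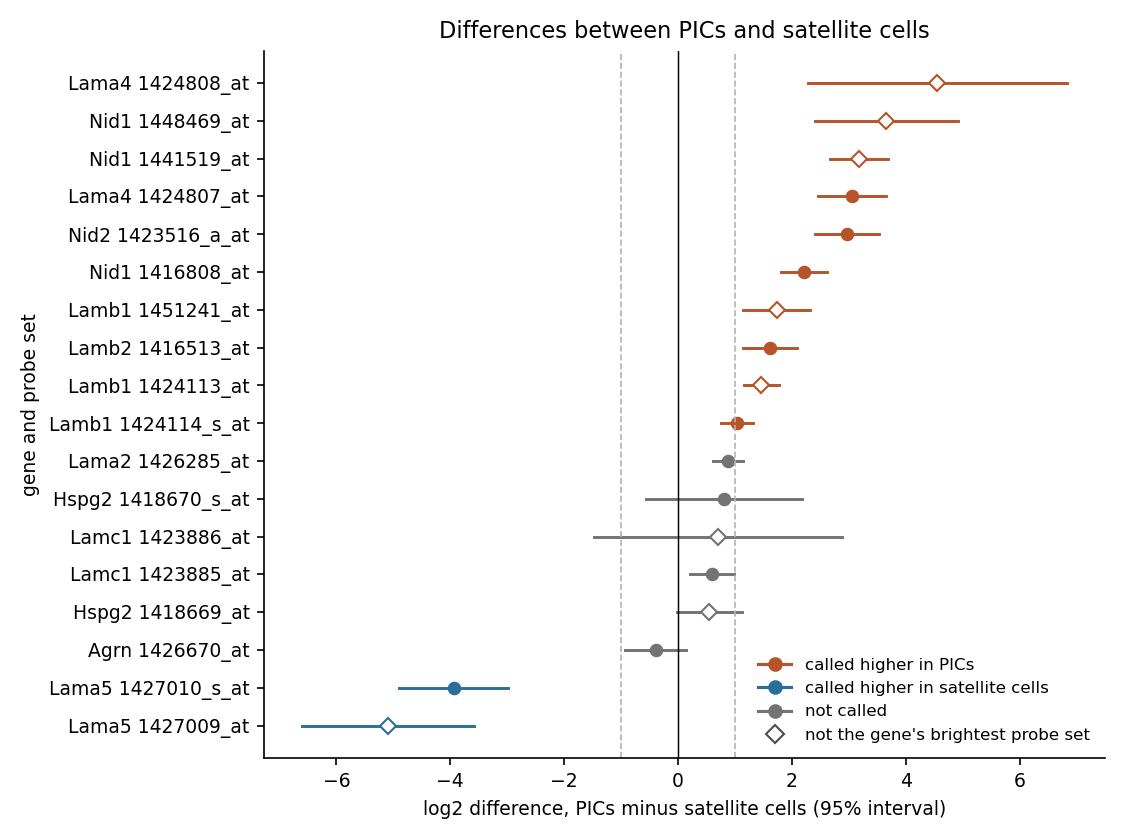
Points give the log2 difference, PICs minus satellite cells, of each tested probe set on the horizontal axis with its 95% interval from limma, ordered by size, and open diamonds mark probe sets that are not the brightest of their gene. The 10 probe sets called higher in PICs belong to Lama4, Nid1, Nid2, Lamb1 and Lamb2, and both called higher in satellite cells belong to Lama5.

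Both nidogen genes were higher in PICs. Nid1 encodes nidogen-1, the main link between laminin gamma1 and collagen IV. Its brightest probe set read 27618, 27172 and 21910 in PICs, against 5940, 4588 and 6093 in satellite cells. The dimmest PIC array lay far above the brightest satellite array, and the log2 difference was 2.21 (95% interval 1.80 to 2.62; limma, adjusted p = 0.000276). A second Nid1 probe set read 13777, 15877 and 4669 in PICs and 1130, 777 and 578 in satellite cells, a difference of 3.66 (adjusted p = 0.00196). A further and dim one, at 77, 54 and 67 in PICs, had no measured level in satellite cells (7, 6 and 9); it passed the filter through PICs alone and adds nothing on the direction.

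Nid2 encodes nidogen-2, a related linker. Its probe set read 2831, 3624 and 3376 in PICs, against 355, 354 and 578 in satellite cells. The populations were far apart, with a difference of 2.97 (95% interval 2.40 to 3.53; limma, adjusted p = 0.000293). Nid2 relative to Nid1 within an array was higher in PICs by 0.76 without overlap (exact permutation p = 0.1, 0.12 adjusted). When the probe sets of each gene were averaged the difference turned to -0.05, so the choice of Nid1 probe set decides it.

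The proteoglycan genes were not called. Hspg2 encodes perlecan, abundant in vessel basement membranes. Its brighter probe set read 1650, 1789 and 487 in PICs, against 979, 562 and 491 in satellite cells. PIC array 3 lay under all 3 satellite arrays and the other PIC arrays above them, and the difference of 0.80 had an interval of -0.56 to 2.17 (limma, adjusted p = 0.28). In the gene fit without PICs replicate 3 the difference was 1.41 and called (adjusted p = 0.0134), and without both arrays numbered 3 it was 1.21 (adjusted p = 0.0301). PIC array 3 also had the lowest endothelial sum of the 6 arrays, 1826, against 6111 and 4415 on PIC arrays 1 and 2. It had the lowest mural (9205), Schwann (3453) and leukocyte (68) sums of the 6 arrays as well. The part of any of these cells in the result was not tested. The second Hspg2 probe set read 313, 327 and 221 in PICs and 222, 218 and 149 in satellite cells, a difference of 0.55 (95% interval -0.01 to 1.11; limma, adjusted p = 0.0958), and its adjusted p with the replicate block was 0.00921.

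Agrn read 993, 888 and 624 in PICs, against 1274, 935 and 1053 in satellite cells. The ranges overlapped, with a difference of -0.40 (95% interval -0.93 to 0.13; limma, adjusted p = 0.181). The log2 ratio of Agrn to Hspg2 within an array differed by -1.20, PICs minus satellite cells, with no overlap (exact permutation p = 0.1, 0.12 adjusted). The margin was narrow, with 0.36 on the highest PIC array and 0.38 on the lowest satellite array. With any satellite array left out the exact permutation p was 0.2. The neural and muscle splice forms of agrin were not analysed here.

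Some probe sets of a gene parted from its others on the arrays numbered 3. In 6 of the 18 tested probe sets, PIC array 3 lay more than 1 log2 unit under the mean of PIC arrays 1 and 2, and in 2 of these, of Lama4 and Lamc1, satellite array 3 did so as well. The second Lamc1 probe set deviated by -2.23 in PICs and -2.39 in satellite cells on array 3, whereas the brighter one deviated by -0.45 in PICs and 0.09 in satellite cells. For Lama4 the second probe set deviated by -1.95 in PICs and -2.45 in satellite cells, and the brighter one by 0.04 in PICs and 0.78 in satellite cells. Over all genes with several tested probe sets, taking those above the low value level on all arrays, the median deviation of the brightest probe set was 0.06 in both populations, and that of the other probe sets was -0.02 in PICs and 0.00 in satellite cells. The probe sets named were picked for their deviation, so the medians are only a description beside them, and the cause was not tested.

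**Figure D3:**
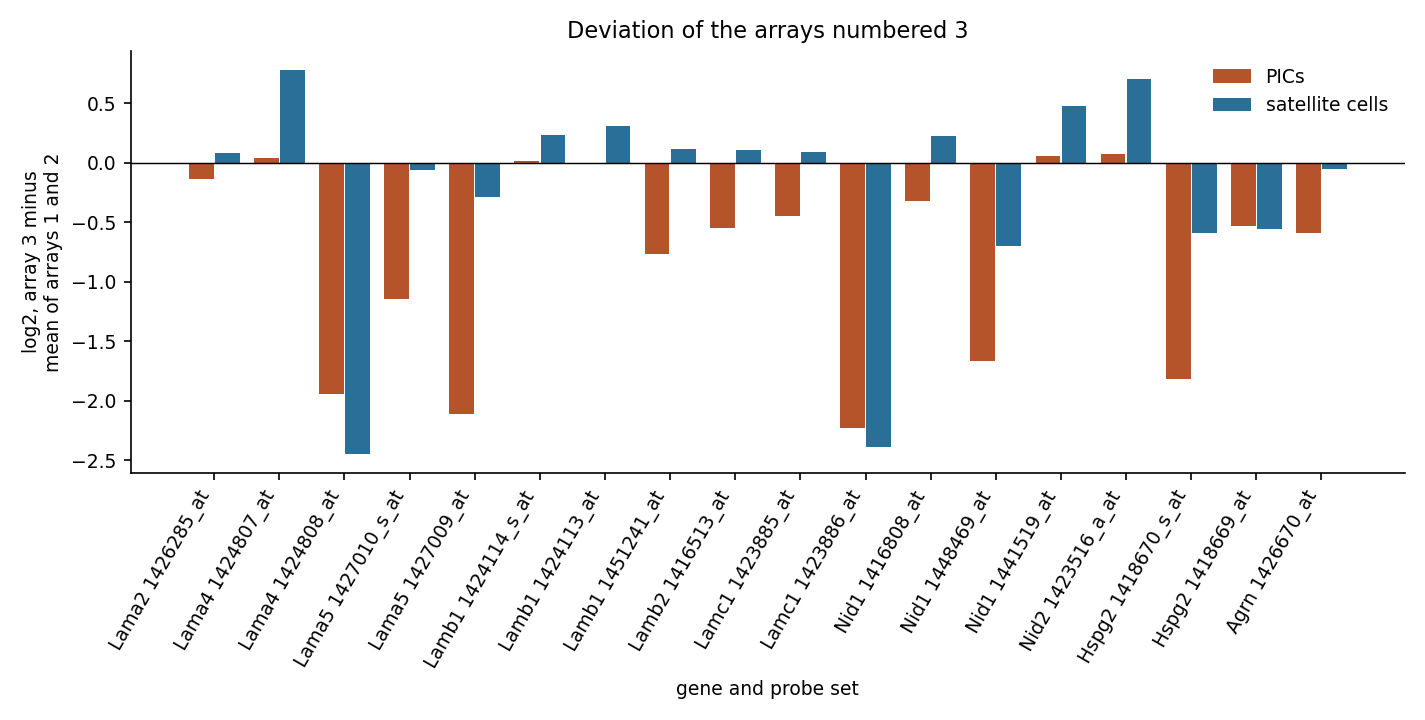
Bars give, for each tested probe set on the horizontal axis, the log2 value of array 3 minus the mean of arrays 1 and 2, in PICs on the left and satellite cells on the right. The second probe sets of Lama4 and Lamc1 drop by about as much in both populations, while Lama5 and the brighter Hspg2 probe set drop mainly in PICs.

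The partners of these proteins are described from the gene fit, by lists written with earlier results of these data known. Of the 5 other laminin chain genes, 4 had probe sets and none was tested: Lama1, Lama3, Lamb3 and Lamc3 stayed at or under 7 on every array.

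Receptors were split between the populations. Of 12 tested, PICs had the higher level of 4 and satellite cells of 3, against 16.7% and 13% of all genes, and the median log2 difference was 0.35. Higher in PICs were the integrin subunit genes Itgb4 (2.51), whose product pairs with the alpha6 integrin, Itga1 (2.45), a collagen and laminin receptor, and Itga6 (1.09), and the syndecan gene Sdc2 (1.67). Itgb4 read 3.91, 4.39 and 3.91 on the satellite arrays (log2), around the low value level, so its size is uncertain. With a stricter filter, at 6 on the log2 scale, 3 receptors were called towards PICs and Itgb4 was not tested. Higher in satellite cells were Itga7 (-2.66), the laminin-binding integrin of muscle, the syndecan gene Sdc4 (-2.19) and Dag1 (-1.55), which encodes dystroglycan. The receptor genes Itgb1, Sdc1, Sdc3, Itga3 and Cd151 were not called, at -0.54 to 0.55.

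Of 12 tested genes that build the sugar chain by which dystroglycan holds laminin, agrin and perlecan, 2 were called, both towards PICs (median 0.61), the same share as the 16.7% of all genes called in that direction. They were Gmppb (2.00), which makes the mannose donor, and Rxylt1 (1.01), a xylosyltransferase of the chain, and the count was 1 without PICs replicate 2 or without satellite replicate 2. Dag1 itself differed the other way.

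Among the other basement membrane genes 9 of 20 tested were called, all of them towards PICs (median 0.77), against 16.7% of all genes called in that direction. The matrix modulator gene Smoc2 (4.03), the collagen IV chains Col4a5 (3.18) and Col4a4 (2.90) and the hemicentin gene Hmcn1 (2.70) led them. Col4a1 and Col4a2, the most widespread collagen IV chains, differed by 0.27 and 0.65 and were not called.

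Genes of heparan sulphate, the sugar chain on perlecan and agrin, were called in 6 of 17 tested (median 0.67), a share close to the 29.8% of all genes. By direction, 5 were called towards PICs and 1 towards satellite cells, against 16.7% and 13% of all genes. The sulphatase genes Sulf2 (3.49) and Sulf1 (3.31), whose products trim sulphate from finished chains outside the cell, had the largest differences, followed by the sulphotransferase gene Hs3st1 (1.79) and the linker enzyme gene B4galt7 (1.05). Hs3st1 was dim, at 4.81, 5.52 and 4.70 in PICs and 4.09, 3.00 and 2.58 in satellite cells (log2). Its size, and so its rank, is uncertain. Hs6st2, a sulphotransferase, was higher in satellite cells (-1.17).

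Of the genes through which agrin acts at the synapse, 6 were tested that had a measured level in both populations, and 4 of these were called towards satellite cells and 1 towards PICs, against 13% and 16.7% of all genes (median -3.09). Rapsn and Chrng, without a measured level in PICs, passed the filter through satellite cells alone and had to differ. Rapsn, which encodes the protein that clusters acetylcholine receptors, averaged 2.33 in PICs and 9.08 in satellite cells on the log2 scale. The receptor subunit genes Chrna1 and Chrnb1 differed by -6.22 and -4.05, and Dok7, an activator of the agrin-responsive kinase MuSK, by -4.08. Higher in PICs was Prss12 (4.26), which encodes neurotrypsin, a protease that cuts agrin. Agrn itself and the agrin receptor gene Lrp4 (0.65, adjusted p = 0.0686 by limma) were not called.

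**Figure D4:**
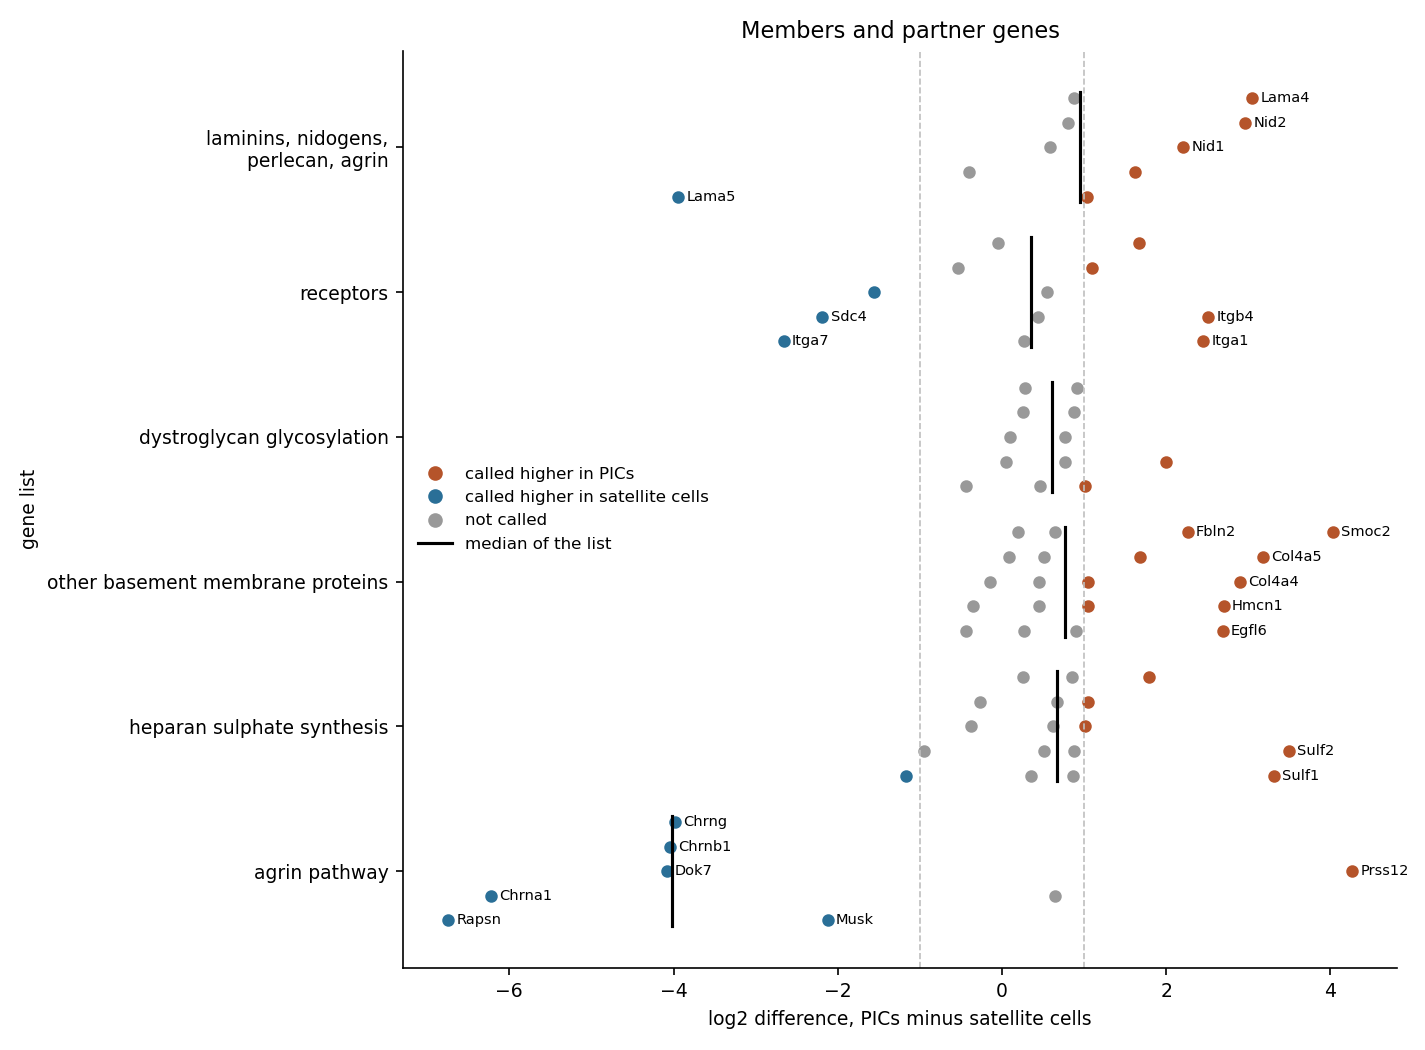
Each point is 1 gene, placed on the horizontal axis by its log2 difference, PICs minus satellite cells, with a black line at the median of each list, colours for the calls and names for genes that differ by at least 2 log2 units. Lama5 stands alone among the members on the satellite side of the 2-fold lines, and the genes of the agrin pathway other than Prss12 and Lrp4 lie there too.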

How the data were processed

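The submitters hybridised biotin-labelled cRNA from 200 ng of total RNA to 1-colour arrays, per the labels' protocols. Per the submitters' processing notes the deposited values come from GCRMA; the sources used here give no version. The deposited intensities are linear and rounded to whole numbers (100% of values), so steps between low values are coarse. They were taken to log2 here from the deposited values. Scan dates were not used here, so batches of scanning were not tested. The number of arrays limits the precision.

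Probe sets were named by the platform annotation, updated by gene number through RefSeq: 34945 had 1 symbol (34741 matched), 932 several and 9160 none. Probe sets above 4 (log2) on at least 3 of 6 arrays were tested with limma 3.58.1 in R 4.3.3 (lmFit, eBayes, two-sided, Benjamini-Hochberg), as 20606 probe sets and as 10855 genes by their brightest probe set. The procedure was tested on simulated data. Where a population lay at or under 4 on all arrays, no level was taken as measured there. Named are all members and, in each partner list, up to 4 called genes of largest difference per direction; the other genes named were chosen after their values were seen. Members and lists were chosen with earlier results of these data known.

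Replicate numbers are shared by the populations. Deviations from the population mean correlated across genes at 0.222 to 0.623 for arrays of equal number and at -0.568 to 0.036 otherwise. The numbers thus appear to pair the arrays, which comes from the data, not the labels. Deviations from a population mean cancel within that population, so the second range is not independent of the first. The main fits and the exact permutation tests treated the arrays as unpaired, and the replicate block is an alternative to the main fits. Alternatives were other filters, the replicate block, an intensity trend, array weights, repeated quantile normalization, an added offset of 16, the mean of probe sets and leaving out arrays.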

Additional observations from a re-analysis of the deposited data

How the results depend on the processing

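The count of member genes called higher in PICs was 4 to 6 with an array left out and that of probe sets 9 to 11, while 1 gene and 2 probe sets were called higher in satellite cells throughout. The replicate block changed no member's call in either fit. No member's difference changed sign under any of 15 alternatives. Lama4 ranged from 2.83 to 3.80, Nid2 from 2.85 to 3.26, Nid1 from 2.08 to 3.01, Lamb2 from 1.51 to 1.93 and Lama5 from -4.52 to -3.26, and these were called under all of them. Lamb1 was not called with repeated quantile normalization (0.999) or without satellite replicate 1 (0.98). Hspg2, not called otherwise, was called with array weights (1.49, limma adjusted p = 0.00218), without PICs replicate 3 and, in an alternative chosen after seeing the data, without both arrays numbered 3. Lamc1 stayed under 2-fold at 0.51 to 0.77, and Agrn at -0.53 to -0.16. Of the list counts, dystroglycan glycosylation had 1 called gene with log2(value + 16) and heparan sulphate 4 (3 towards PICs). With an array left out, dystroglycan glycosylation had 1 to 3 called genes and receptors 7. Other basement membrane genes then had 8 to 10, heparan sulphate genes 5 to 8 and agrin pathway genes 7. The agrin pathway count includes Rapsn and Chrng, which passed the filter through satellite cells alone and had to differ. The ratio of Nid2 to Nid1 reversed to -0.049 with the mean of probe sets (exact permutation p = 0.7), and no other ratio changed sign. With an array left out the ratio differences lay at -7.43 to -6.60 for Lama5 to Lama4, -5.22 to -4.48 for Lama5 to Lama2, 1.99 to 2.41 for Lama4 to Lama2, 0.47 to 0.77 for Lamb2 to Lamb1, 0.58 to 0.92 for Nid2 to Nid1 and -1.61 to -0.93 for Agrn to Hspg2. Values near the low value level, above all Lama5 in PICs, have the least certain size.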
